A study of Danio rerio with 6 samples.

Results

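The S100 genes encode small calcium-binding proteins, and 14 of the 26190 genes in the transcript tables carried an S100 or ictacalcin symbol. Of these 14 genes, 8 are described here in depth: the ictacalcins *icn* and *icn2*, and *s100a10b*, *s100u*, *s100v1*, *s100v2*, *s100w* and *s100z*. They were taken by symbol from the annotation that the authors deposited with the transcripts, and all 8 were present. The remaining 6 S100 genes of the tables served for comparison.

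RNA was measured in 6 libraries from *Tg(krt4:GFP)* zebrafish embryos at the 4-somite stage, 3 of GFP-positive and 3 of GFP-negative cells separated by fluorescence-activated cell sorting (FACS). All embryos carried the same transgene and no other treatment is given. In this line the regulatory sequence of *krt4*, a keratin gene, drives GFP in the periderm, the outermost cell layer of the embryo, so that the GFP-positive fraction was labelled periderm. The GFP-negative fraction was labelled non-periderm, and the paper describes it as a mixture of other cell types. Markers of periderm and of other cell types were measured in both fractions, as given below. Cells came from dissociated pools of embryos, and the study describes the 3 replicates as independent. According to its methods both populations were isolated in each replicate. The labels do not say whether equal replicate numbers mark the same pool of embryos.

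S100 proteins occur in vertebrates. Each subunit has a pair of EF hands, helix-loop-helix folds that hold a calcium ion, and most S100 proteins form dimers that bind a target protein once calcium is bound. Many mammalian S100 genes lie in clusters and are expressed in skin and other epithelia. Ictacalcin was first described in a catfish and is an S100 protein of fish epithelia. S100A10 is the exception to the calcium rule: in mammals it no longer binds calcium and forms a complex with annexin A2 at membranes. The genes with the letters s, t, u, v and w are S100 genes named in fishes, and no role is assigned to them here. No nucleotide or protein sequence was used here.

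Levels are given as TPM, the kallisto measure that corrects for the length of a transcript and brings every library to the same total, summed over the transcripts of a gene. Differences are log2 fold changes of GFP-positive over GFP-negative cells, fitted to gene-level counts with edgeR's quasi-likelihood test, each with its standard error and an adjusted p (Benjamini-Hochberg over 20944 genes). Calls of higher or lower required an adjusted p below 0.05 together with a mean over 1 TPM in whichever population expressed the gene more. Estimated counts summed to between 40584467 and 49679602 per library, so that 3 counts were worth 0.0604 to 0.0739 CPM, the unit of counts scaled to library size. The gene *krt4* had 2384, 2316 and 2591 TPM in GFP-positive cells and 545, 624 and 636 TPM in GFP-negative cells. Because its regulatory sequence drives the GFP that was sorted on, *krt4* is no independent check of the sort.

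Of the 8 genes, 7 were called higher in GFP-positive cells and 0 lower, and *s100z* was called in neither direction. The 8 genes were chosen with earlier results of these data known, which can favour genes that differ. Among all 20944 genes tested 24.1% were called higher, 25.0% lower and 49.0% in either direction. All 8 genes passed the filter on low counts, and 7 had a mean above 1 TPM in both populations. The GFP-positive and GFP-negative libraries did not overlap in 7 of the 8, where 58.5% of all genes tested also did not overlap. The median log2 fold change of the 8 was 2.41, beside 0.02 over all genes, and 6 of the 8 were more than 2-fold higher, a size that 11.8% of all genes reached in that direction. One of these 6, *s100u*, was 2.27-fold higher by counts but 1.88-fold higher by mean TPM, and its log2 value was 0.88 with limma on log2(TPM + 1). With limma on log2(TPM + 1) in place of edgeR, the split of all calls moved to 3805 higher and 6036 lower, against 5041 and 5229 with edgeR, and 7 of the 8 genes were again called higher.

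Because bulk RNA was measured, more cells of a type and more RNA per cell cannot be told apart in these differences. Markers of other cell types differed as well, in data where 24.1% of all genes tested were called higher and 25.0% lower. All 11 periderm markers found were higher in GFP-positive cells. Their summed level, *krt4* included, was 5379 to 5623 TPM in GFP-positive and 860.4 to 959.6 TPM in GFP-negative libraries. As stated above, *krt4* is no independent check of the sort. All 6 hatching gland genes were higher as well (6488 to 6735 TPM in GFP-positive, 860.4 to 864 TPM in GFP-negative libraries), and so were 4 of 5 notochord genes (469 to 578 TPM in GFP-positive, 132 to 134 TPM in GFP-negative libraries). In the list for paraxial mesoderm and muscle 4 of 8 genes were higher and 3 lower. Its summed level was 4462 to 4594 TPM in GFP-positive and 1557 to 1601 TPM in GFP-negative libraries. Most of it came from *actc1b* (2977 TPM in GFP-positive, 856 TPM in GFP-negative cells) and *acta1a* (1374 TPM in GFP-positive, 509 TPM in GFP-negative cells). Of the others *mespaa* (1.22) and *myod1* (0.25) were higher on the log2 scale. Lower were *tbx16* (−1.35), *msgn1* (−0.86) and *tbx6* (−0.56), and *myf5* (−0.03) was not called. Blood and endothelium had 4 of 6 genes higher and 1 lower (1508 to 1791 TPM in GFP-positive, 825 to 901 TPM in GFP-negative libraries), basal epidermis 4 of 6 higher (148 to 164 TPM in GFP-positive, 109 to 117 TPM in GFP-negative libraries), ionocytes 3 of 6 higher (91.9 to 97.2 TPM in GFP-positive, 81.5 to 89.7 TPM in GFP-negative libraries) and endoderm 3 of 5 higher (72.7 to 76.1 TPM in GFP-positive, 59.8 to 65.4 TPM in GFP-negative libraries). Neural genes were lower in 6 of 7 (599 to 623 TPM in GFP-positive, 1069 to 1117 TPM in GFP-negative libraries), and of 4 genes tested for the yolk syncytial layer 1 was higher and 1 lower (14.0 to 19.3 TPM in GFP-positive, 10.6 to 15.7 TPM in GFP-negative libraries). No marker of these lists was at 0 in all libraries. The most abundant marker of each list was *krt4* (log2 fold change 2.13), *ctslb* (3.45), *col2a1a* (2.25), *actc1b* (1.90), *hbbe1.1* (1.42), *tp63* (0.73), *atp6v1aa* (0.27), *cxcr4a* (0.42), *sox3* (−0.74) and *apoa2* (0.58), in the order of the lists given. The symbol *ctslb* stood for a pair of gene identifiers, at 3.45 and 2.72, which both count among the 6 hatching gland genes. The most abundant marker can differ from others of its list. In the yolk syncytial layer list *mxtx1* was lower (−1.69), against *apoa2*, and the rest tested were not called. The call of *atp6v1aa* was lost with limma on log2(TPM + 1) (adjusted p = 0.111) and on log2(TPM + 0.1) (adjusted p = 0.114), and that of *apoa2* for its most abundant transcript (adjusted p = 0.101). The part of these cell types in the S100 values was not tested.

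**Figure D1:**
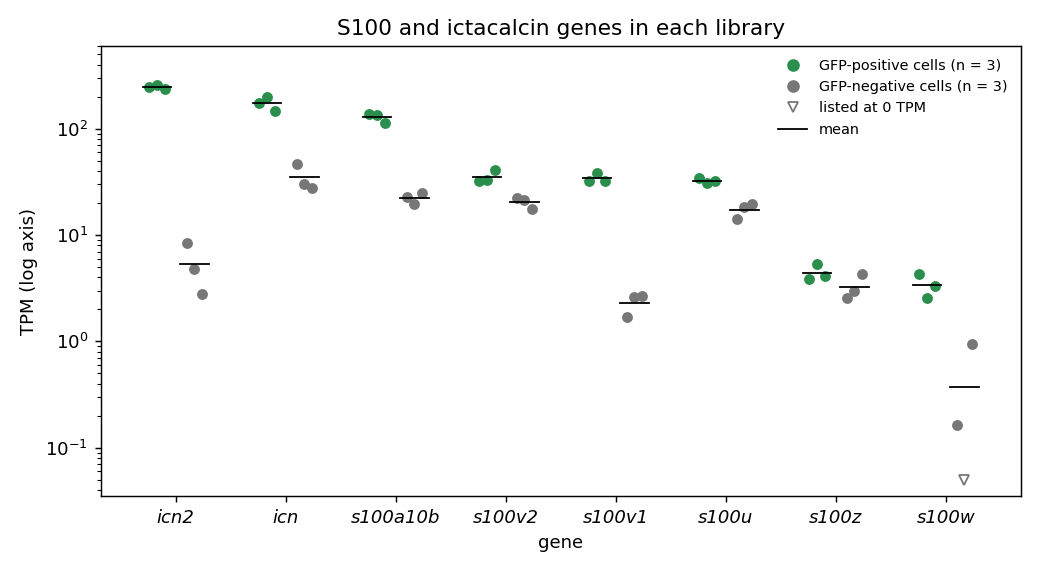
Each point is 1 library, with the level of the gene in TPM on a log axis, GFP-positive libraries in green to the left of GFP-negative libraries in gray, and a line at the mean of 3. The GFP-positive points of *icn2* sit at 239 to 258 TPM and its GFP-negative points at 2.79 to 8.45 TPM, whereas the points of *s100z* overlap and 1 GFP-negative library has *s100w* listed at 0.

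The ictacalcin *icn2* (ENSDARG00000055514) was the most abundant of the 8 genes in GFP-positive cells and had the largest difference among them. It had 246, 258 and 239 TPM in GFP-positive cells, against 8.45, 4.83 and 2.79 TPM in GFP-negative cells. The GFP-positive libraries lay close together, with a coefficient of variation of 3.95%, whereas the GFP-negative libraries spread by 53.4% around a low mean, and no library of one population came near the other. The fitted log2 fold change was 5.53 (SE 0.20, adjusted p = 2.97e-11), a 46.3-fold higher level, and ranked 22 among the 20944 genes. Behind these values stood 1408, 1208 and 1236 counts in the GFP-positive libraries and 44, 22 and 14 counts in the GFP-negative libraries.

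Its relative *icn* (ENSDARG00000009978) was also an abundant GFP-positive transcript, but remained well measured in the GFP-negative cells. Its level was 175, 199 and 145 TPM in GFP-positive cells, against 46.8, 30.1 and 27.4 TPM in GFP-negative cells. The populations did not overlap. The log2 fold change of *icn* was 2.33 (SE 0.19, adjusted p = 1.23e-07), or 5.05-fold. In order of abundance *icn* was at place 1026 of the 26190 genes in GFP-positive cells and at place 4380 in GFP-negative cells, whereas *icn2* was at place 711 in GFP-positive cells and at place 10900 in GFP-negative cells.

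The balance between the ictacalcins therefore differed between the populations. The ratio of *icn2* to *icn* TPM was 1.40, 1.29 and 1.64 in the GFP-positive libraries and 0.180, 0.160 and 0.102 in the GFP-negative libraries, so *icn2* was the more abundant transcript in every GFP-positive library and *icn* in every GFP-negative library. An exact two-sided permutation test of 3 against 3 libraries gives at smallest p = 0.1, the value that ratios without overlap reach. With the counts of both genes summed, the log2 fold change was 3.49 (SE 0.17, adjusted p = 5.15e-10). GFP-negative replicate 1 had the highest level of both *icn* and *icn2* among the GFP-negative libraries. Its *krt4* (545 TPM) and its summed periderm markers (860.4 TPM, *krt4* included) were the lowest of the 3. Single periderm markers went both ways across GFP-negative replicates 1 to 3, more often with replicate 1 lowest. In replicate 1 only *agr1* (3.10, 2.31 and 1.59 TPM) and *cldnf* (3.61, 2.94 and 3.48 TPM) were highest. Lowest there, besides *krt4*, were *krt5* (30.7, 39.4 and 37.2 TPM), *cyt1* (133, 141 and 136 TPM), *krt17* (6.94, 7.93 and 8.02 TPM) and *ppl* (0.217, 0.657 and 0.480 TPM). In *cyt1l*, *krt92*, *cldne* and *evpla* replicate 1 lay between the others. The source of these differences was not tested. Without this library the log2 fold change was 6.05 for *icn2* and 2.61 for *icn*.

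The *s100a10b* gene (ENSDARG00000025254), a counterpart of mammalian *S100A10*, was next in abundance. It reached 139, 134 and 114 TPM in GFP-positive cells, against 22.6, 19.7 and 24.6 TPM in GFP-negative cells. Replicates lay close together (coefficients of variation 10.3% in GFP-positive and 11.1% in GFP-negative cells), and the populations did not overlap. Its log2 fold change of 2.48 (SE 0.12, adjusted p = 5.10e-10) corresponds to a 5.57-fold higher level. The relative *s100a10a* was far less abundant, at 0.800 ± 0.317 TPM in GFP-positive and 0.287 ± 0.110 TPM in GFP-negative cells (SD, n = 3 each), and did not pass the filter on low counts.

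The *s100v1* gene (ENSDARG00000070427) had the second-largest difference of the 8. Its level was 32.5, 38.5 and 32.1 TPM in GFP-positive cells, against 1.68, 2.60 and 2.66 TPM in GFP-negative cells, far apart in every library. The log2 fold change was 3.99 (SE 0.17, adjusted p = 1.25e-10), or 15.9-fold. The similarly named *s100v2* (ENSDARG00000070702) was as abundant in GFP-positive cells, with 32.4, 32.8 and 40.8 TPM, against 22.1, 21.2 and 17.7 TPM in GFP-negative cells. Here the populations came closer to each other, again without overlap, and the log2 fold change was 0.89 (SE 0.11, adjusted p = 7.35e-06). The ratio of *s100v1* to *s100v2* TPM was 1.00, 1.17 and 0.787 in the GFP-positive libraries and 0.0759, 0.123 and 0.150 in the GFP-negative libraries, again without overlap. Their summed counts gave a log2 fold change of 1.69 (SE 0.08, adjusted p = 8.62e-10).

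The *s100u* gene (ENSDARG00000071014) was nearly as abundant as the *s100v* genes in GFP-positive cells. It had 34.5, 30.8 and 32.4 TPM in GFP-positive cells, against 14.2, 18.3 and 19.5 TPM in GFP-negative cells. The populations did not overlap, and the log2 fold change was 1.18 (SE 0.08, adjusted p = 2.03e-08).

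The remaining genes had the lowest levels in GFP-positive cells. For *s100w* (ENSDARG00000101181) 74, 33 and 47 counts were found in GFP-positive cells, against 2, 0 and 11 counts in GFP-negative cells, which is 4.32, 2.58 and 3.34 TPM against 0.165, 0 and 0.946 TPM. The gene was called higher with a log2 fold change of 3.46 (SE 0.68, adjusted p = 6.46e-04), and the count of 0 in GFP-negative replicate 2 allows a level of up to 0.0738 CPM by counting error alone. A single library set much of this value: without GFP-negative replicate 3, which held 11 of the 13 GFP-negative counts, the log2 fold change was 5.44. On the log2(TPM + 1) scale, which understates changes of low genes, it was 1.73. With a limit of 5 TPM in place of 1 the gene was no longer called and 6 of the 8 genes were. With that limit 3525 of all 20944 genes tested were called higher.

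For *s100z* (ENSDARG00000038729), which has a namesake in mammals, the populations overlapped. It had 3.83, 5.35 and 4.1 TPM in GFP-positive cells, against 2.54, 2.99 and 4.26 TPM in GFP-negative cells, and GFP-negative replicate 3 lay above 2 of the GFP-positive libraries. The log2 fold change was 0.53 (SE 0.23, adjusted p = 0.0649). Without GFP-negative replicate 3 it was 0.77 and passed the threshold (adjusted p = 0.0174), as it did without GFP-positive replicate 3 (0.62, adjusted p = 0.0451). In both settings 8 of the 8 genes were called higher. Of all genes tested 4517 of 21367 were called higher without GFP-negative replicate 3, and 5167 of 21193 without GFP-positive replicate 3. Leaving out any other library left *s100z* uncalled.

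**Figure D2:**
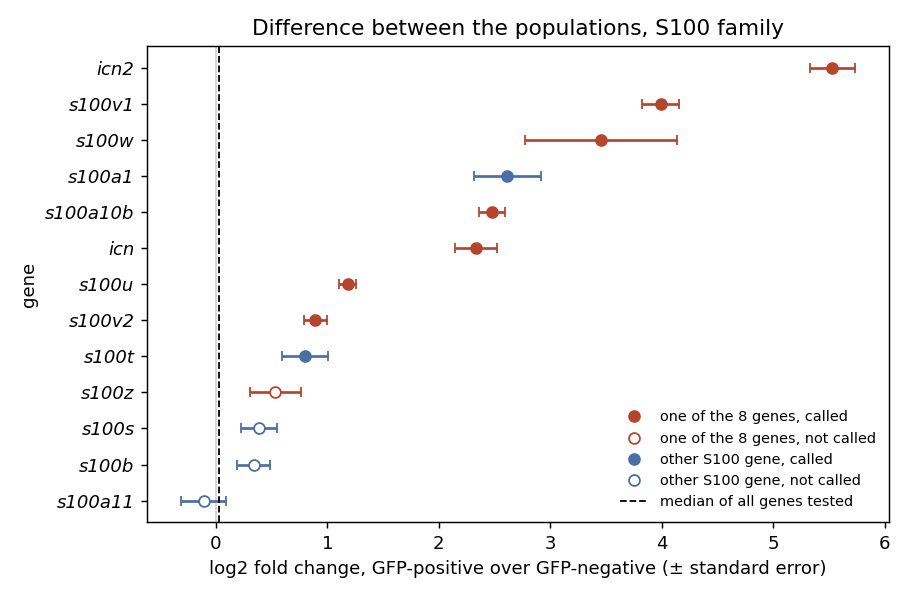
Points are fitted log2 fold changes of GFP-positive over GFP-negative cells with bars of ± 1 standard error, red for the 8 genes and blue for other S100 genes, filled where called, and the dashed line is the median of all genes tested (0.02). The values of the 8 genes run from 0.53 for *s100z* to 5.53 for *icn2*, and *s100a11*, at −0.11, is the one gene with a value under 0.

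The order of the genes was not the same in the populations. In GFP-positive cells *icn2*, *icn* and *s100a10b* followed each other without overlap between libraries. After them came *s100v2*, *s100v1* and *s100u*, whose libraries overlapped at 30.8 to 40.8 TPM, and last *s100z* and *s100w*, which overlapped as well. In GFP-negative cells *icn* led, followed by *s100a10b*, *s100v2* and *s100u*, whose neighbours overlapped. Below them lay *icn2*, *s100z* and *s100v1*, which overlapped with their neighbours at 1.68 to 8.45 TPM, and then *s100w*.

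Summed over the 8 genes the level was 667, 701 and 610 TPM in GFP-positive libraries and 119, 99.7 and 99.9 TPM in GFP-negative libraries, with means of 659 ± 45.9 TPM in GFP-positive and 106 ± 10.9 TPM in GFP-negative cells (SD, n = 3 each), a 6.22-fold ratio. The make-up of the sum differed. The share of *icn2* averaged 37.6% in GFP-positive and 4.92% in GFP-negative cells, whereas *s100v2* made up 5.41% in GFP-positive and 19.2% in GFP-negative cells and *s100u* 4.96% in GFP-positive and 16.6% in GFP-negative cells. The share of *s100a10b* was 19.5 ± 1.13% in GFP-positive and 21.2 ± 3.04% in GFP-negative cells (SD, n = 3 each), and that of *icn* was 26.2 ± 2.32% in GFP-positive and 32.4 ± 6.30% in GFP-negative cells.

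**Figure D3:**
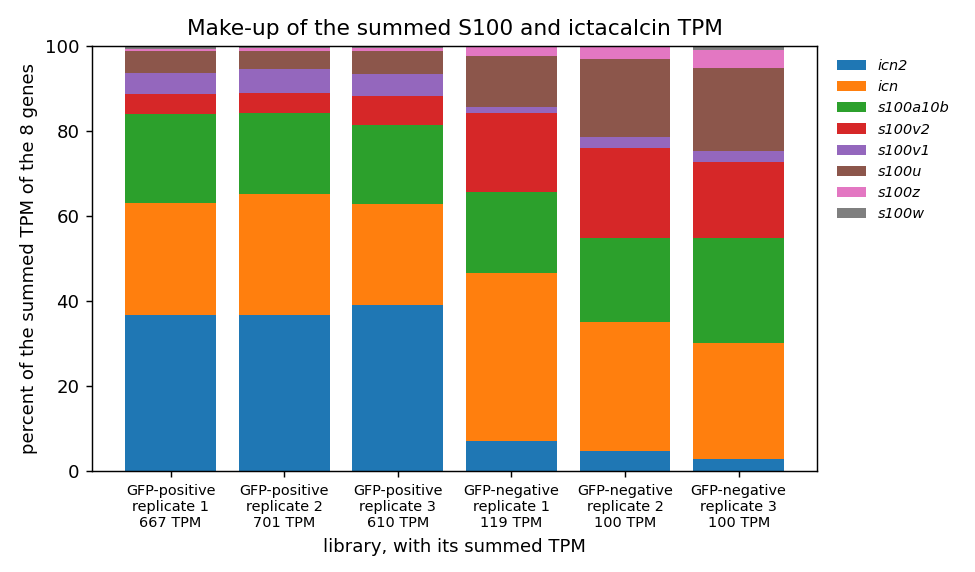
Stacked bars give the percent of the summed TPM of the 8 genes that each gene took in each library, with the 3 GFP-positive libraries on the left, the 3 GFP-negative libraries on the right and the summed TPM under each bar. The *icn2* part covers 36.8 to 39.1% of the GFP-positive bars and 2.80 to 7.12% of the GFP-negative bars.

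Several of these genes had more than 1 annotated transcript: the 8 genes had 13 transcripts, and 4 genes had a single one. Each transcript was therefore also fitted apart, among 32736 transcripts of which 16.2% were called higher. This fit was chosen after seeing the data. Both expressed transcripts of *s100a10b* were higher. Its transcript of 576 bases had 81.9, 73.3 and 63.3 TPM in GFP-positive cells, against 9.45, 8.84 and 12.0 TPM in GFP-negative cells, with a fitted value of 2.92 (log2 scale, SE 0.20, adjusted p = 9.44e-05). The transcript of 862 bases had 56.6, 59.9 and 49.7 TPM in GFP-positive cells, against 13.2, 10.9 and 12.6 TPM in GFP-negative cells, with a fitted value of 2.28 (log2 scale, SE 0.14, adjusted p = 6.65e-05). By TPM the shorter form was thus the more abundant in each GFP-positive library and the longer form in each GFP-negative library. The shorter form took 54.9 to 59.1% of the gene's TPM in GFP-positive and 41.7 to 48.9% in GFP-negative libraries. By estimated counts, before the correction for length, the longer form led in the GFP-positive libraries too (1227, 1052 and 961 against 837, 613 and 582). The division of reads between the forms is an estimate, and their difference in response was not tested. A further transcript of 452 bases stayed at 0 to 0.521 TPM and was not tested.

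For *s100u* only the longer transcript was called. The transcript of 2367 bases had 26.2, 25.2 and 24.9 TPM in GFP-positive cells, against 11.4, 12.6 and 10.3 TPM in GFP-negative cells, with a fitted value of 1.30 (log2 scale, SE 0.09, adjusted p = 1.05e-04). The transcript of 962 bases had 8.32, 5.56 and 7.49 TPM in GFP-positive cells, against 2.82, 5.68 and 9.21 TPM in GFP-negative cells, and its value of 0.38 (SE 0.41, adjusted p = 0.516) left the populations overlapping. Whether the transcripts differed from each other in their response was not tested. The main transcript of *s100v2*, of 1014 bases, was called higher (log2 fold change 0.84, SE 0.15, adjusted p = 0.00569), whereas its minor transcript of 1128 bases, at 0 to 5.43 TPM, had a value of 1.52 with a wide error (SE 1.06, adjusted p = 0.315).

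The *s100w* transcript of 754 bases had 74, 20.5 and 30.3 estimated counts in the GFP-positive libraries and 0 in each GFP-negative library. No fold is read from its fit, because all 13 GFP-negative counts of the gene were assigned to its other transcript, of 669 bases. The value of that other transcript, 1.15, did not pass the test (SE 1.51, adjusted p = 0.603). The division of so few reads between transcripts is itself an estimate.

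**Figure D4:**
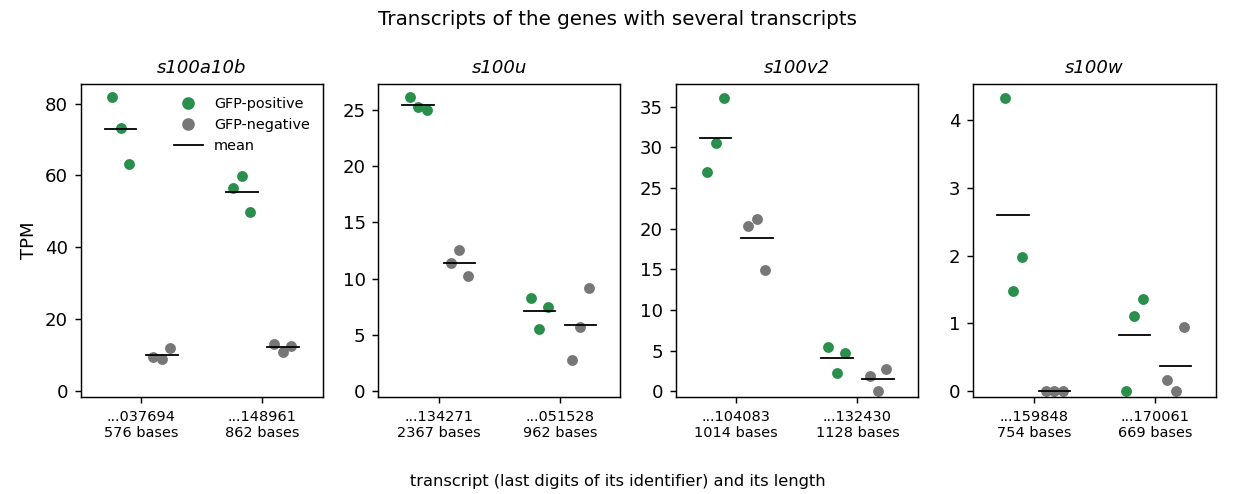
Panels show the transcripts of the 4 genes with several transcripts, with TPM on a linear axis from 0 that differs between panels, 1 point per library, GFP-positive libraries in green to the left of GFP-negative libraries in gray, and lines at the means. The *s100a10b* transcript of 452 bases, at or below 0.521 TPM, is left out, and the *s100w* transcript of 754 bases has all GFP-negative points at 0.

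Reads that fit several genes are divided by kallisto and can then give counts that are not whole numbers. The gene-level estimated count was whole in all 6 libraries for 7 of the 8 genes, within a tolerance of 0.01, and *s100z* was the one with fractions. Among all genes tested 55.8% were whole in all libraries, and among the other S100 genes 2 of 6. The counts of *icn* and *icn2*, and of *s100v1* and *s100v2*, were thus without fractions. These transcripts are short, and kallisto scaled *icn* (408 bases) by an effective length of 117 bases in GFP-positive and 126 bases in GFP-negative libraries and *icn2* (434 bases) by 133 bases in GFP-positive and 143 bases in GFP-negative libraries. Their TPM depends on these lengths more than that of longer transcripts does. The fold changes were fitted to counts without a correction for effective length, so they do not account for its difference between the populations.

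Of the other S100 genes 5 were tested, of which 2 were called higher and 0 lower (over all genes 24.1% and 25.0%). Their median log2 fold change was 0.39. Because the 8 genes were chosen with earlier results of these data known, that choice may have set the contrast with these genes. The *s100a1* gene, whose mammalian counterpart acts in heart and skeletal muscle, had 8.97, 12.8 and 8.62 TPM in GFP-positive cells, against 1.40, 2.03 and 1.73 TPM in GFP-negative cells (a difference of 2.61 on the log2 scale, SE 0.30, adjusted p = 5.18e-06). The *s100t* gene had 9.21, 9.94 and 8.02 TPM in GFP-positive cells, against 5.76, 5.99 and 4.67 TPM in GFP-negative cells (a difference of 0.80, SE 0.21, adjusted p = 0.00480). Both were higher without overlap between the populations. The libraries did not overlap in 3 of the 5 genes tested, the third being *s100s*, which was not called, and in 58.5% of all genes tested. For *s100s* the value was 0.39 (SE 0.16, adjusted p = 0.0576), and it passed without GFP-positive replicate 3 (0.50, adjusted p = 0.0199). For *s100b*, in mammals a gene of glial cells, the value was 0.34 (SE 0.15, adjusted p = 0.0704). The *s100a11* gene, whose mammalian protein binds annexin A1, had 17.2 ± 2.39 TPM in GFP-positive and 19.0 ± 2.25 TPM in GFP-negative cells (SD, n = 3 each), with a log2 fold change of −0.11 (SE 0.20, adjusted p = 0.681). Without GFP-negative replicate 3 its value was 0.0031 and not called either.

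In the RefSeq annotation of the zebrafish assembly GRCz12tu, a later assembly than the danRer10 sequences used for quantification, *s100a10b*, *s100w*, *icn* and *icn2* follow each other directly, with 0 annotated genes between neighbours. All 4 were called higher, with log2 fold changes of 2.48, 3.46, 2.33 and 5.53, where 24.1% of all genes tested were called higher. They belong to the chosen genes and are part of the count of calls given above. On the side of *s100a10b* the run is flanked by *krtcap2*, which was higher as well (0.90, SE 0.11), and on the side of *icn2* by *snx27b*, which was lower (−0.40, SE 0.08). In a different run, *s100u* lies between *s100a11* and *s100s*. There *s100u* was called higher and its S100 neighbours were not, and the outer neighbours were *pbxip1a* (0.21, SE 0.11, not called) and *pygo2* (−0.79, SE 0.09, lower). Of the 14 S100 genes, 7 shared the chromosome of the first run, among them *s100v1*, *s100a1* and *s100t*, and 5 shared that of the other, among them *s100v2* and *s100a10a*. Outside the runs, the neighbours that were tested went in both directions or were not called. *s100v1* was flanked by *trim33l* (0.44, SE 0.10, higher) and the untested *dcst2*, *s100z* by *crhbp* (1.22, SE 0.12, higher) and the untested *ch25hl2*, and *s100v2* by *prf1.8*, which was untested as well. Beside the other S100 genes lay *si:ch211-105c13.3* next to *s100t* (3.68, SE 0.24, higher), *snx27a* next to *s100a10a* (−1.77, SE 0.14, lower) and, none of them called, *trim46b* next to *s100a10a* (−0.06, SE 0.17), *tlr18* next to *s100a1* (−0.41, SE 0.26) and *sh3bp4a* next to *s100b* (−0.04, SE 0.06).

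**Figure D5:**
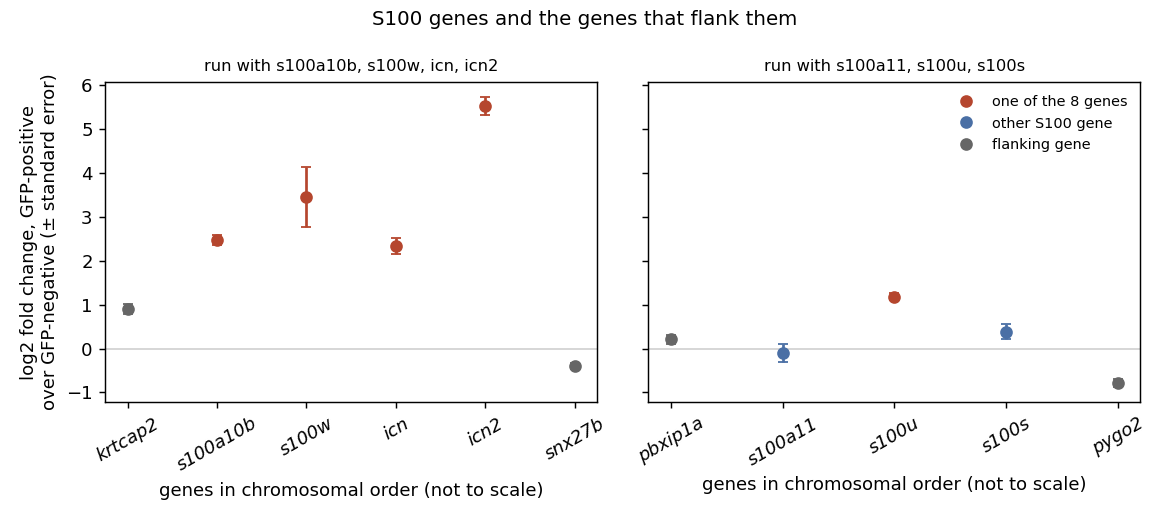
Genes are placed in chromosomal order, not to scale, against their log2 fold change of GFP-positive over GFP-negative cells ± 1 standard error, with the 8 genes in red, other S100 genes in blue and flanking genes in gray. The run of *s100a10b*, *s100w*, *icn* and *icn2* lies at 2.33 to 5.53 between *krtcap2* at 0.90 and *snx27b* at −0.40, whereas in the other run only *s100u*, at 1.18, was called higher.

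Genes with profiles like those of the 3 most abundant members were sought outside the S100 and ictacalcin genes. The 9278 candidates had a mean TPM above 10 in at least 1 population. They were listed by the root mean square difference between centred log2 CPM profiles over the 6 libraries. A constant was added to CPM before the logarithm, which shrinks the differences of genes with few counts. It was of the size of the GFP-negative levels of *icn2* (0.944, 0.541 and 0.315 CPM), so it also entered the profile of *icn2* itself. Distances can therefore be smaller than the fitted log2 fold changes imply, and the order without the constant was not tested. The size of the difference between the populations enters the distance, so it is given for each gene as a log2 fold change. For *icn2* the closest were *agr1*, an anterior gradient gene of the periderm list (0.0958), *zgc:113232* (0.184) and *si:ch1073-340i21.3* (0.204), with log2 fold changes of 5.43, 5.05 and 4.92. For *icn* they were *si:dkey-248g21.1* (0.147), *trdn*, which encodes a protein of the muscle sarcoplasmic reticulum (0.149), and *fadd*, an adaptor of death receptors (0.159), with log2 fold changes of 2.86, 2.33 and 2.21 beside 2.33 for *icn* itself. For *s100a10b* they were *zgc:112148* (0.0523), *ckma*, a muscle creatine kinase (0.0862), and *hopx*, a homeodomain-only protein (0.0897), with log2 fold changes of 3.12, 2.48 and 2.33 beside 2.48 for *s100a10b*. The genes nearest to *icn* and *s100a10b* included muscle genes, *trdn* and *ckma*, among others. That they were higher in GFP-positive cells follows from the search, because the size of the difference enters the distance. The part of muscle cells in the GFP-positive values was not tested.

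Annexins bind membranes in the presence of calcium, and several mammalian S100 proteins pair with them. Of 19 annexins and other known partners tested, 15 were called higher in GFP-positive cells and 0 lower (over all genes 24.1% and 25.0%). The median log2 fold change of the 19 was 0.99, beside 0.02 over all genes. The largest differences were those of *anxa1b* (4.84, SE 0.10), *anxa1c* (4.83, SE 0.09) and *anxa2a* (3.40, SE 0.10). Of these *anxa1c* had 155 ± 3.55 TPM in GFP-positive and 7.38 ± 0.0726 TPM in GFP-negative cells (SD, n = 3 each), whereas the abundant *anxa11a* had 128 ± 5.86 TPM in GFP-positive and 117 ± 1.29 TPM in GFP-negative cells (0.25, SE 0.05) and *cacybp*, whose mammalian protein binds S100A6, had 85.0 ± 5.62 TPM in GFP-positive and 77.9 ± 3.27 TPM in GFP-negative cells (0.22, SE 0.08). The calls of *anxa11a* and *cacybp* were lost with limma on log2(TPM + 1), at adjusted p = 0.0630 and 0.134, and that of *cacybp* also without any 1 of 4 libraries.

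The annexin A2 genes, counterparts of the partner of mammalian S100A10, differed from each other. In GFP-positive cells *anxa2a* had 36.1, 36.6 and 36.8 TPM, against 3.67, 4.1 and 3.42 TPM in GFP-negative cells. Its libraries lay far apart between populations, as did those of *s100a10b*. The *anxa2b* gene was at 0.330 ± 0.397 TPM in GFP-positive and 0.874 ± 0.319 TPM in GFP-negative cells (SD, n = 3 each) and was not called. In GFP-positive cells *s100a10b* was thus more abundant than *anxa2a* (129 ± 13.2 and 36.5 ± 0.376 TPM, SD, n = 3 each).

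Other EF-hand proteins, from calmodulins to calpains and parvalbumins, moved in both directions. Of 37 genes tested 22 were called higher and 5 lower (over all genes 24.1% and 25.0%), with a median log2 fold change of 0.61. Among those higher, *tnnc1b*, a troponin C of striated muscle, led with 3.38 (SE 0.14), followed by *pvalb2*, a parvalbumin (1.95, SE 0.36), and *rcn3*, a reticulocalbin of the endoplasmic reticulum (1.83, SE 0.06). Among those lower were *pvalb8* (−1.48, SE 0.25), *tnnc1a* (−1.26, SE 0.25) and *pef1* (−0.33, SE 0.07). A further troponin C gene, *tnnc2*, was higher (1.73, SE 0.06); it was picked out after its value was seen. The most abundant genes of this list were calmodulins and a calreticulin. Calreticulin binds calcium without an EF hand, so *calr* is counted among the 37 but is no EF-hand gene. The calmodulin gene *calm2b* had 922 ± 35.6 TPM in GFP-positive and 952 ± 17.4 TPM in GFP-negative cells (SD, n = 3 each) and a log2 fold change of 0.06 that was not called and turned to −0.0476 with limma on log2(TPM + 1), whereas without GFP-positive replicate 3 it was called higher (0.13, adjusted p = 0.0134). The symbol *calm3a* stood for a pair of gene identifiers, an abundant one that was lower (−0.29, SE 0.04) and a rarer one that was higher (0.32, SE 0.08). The calreticulin gene *calr* had a value of −0.12 (SE 0.05, adjusted p = 0.0670), and passed as lower with limma on log2(TPM + 1) (−0.23), with library size in place of TMM and without GFP-positive replicate 1.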

How the data were processed

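The authors trimmed the reads with Trimmomatic (0.35 in the submitters' processing notes), quantified them with kallisto (0.41) against zv10 (danRer10) cDNA, and deposited for each of 6 libraries an estimated count, a TPM value, a length and an effective length (other units, in bases) for 51286 transcripts. The deposited TPM values correct for effective length and library total, and the deposited estimated counts are not normalized. A further table of the authors repeats the TPM values (equal for 100% of them) beside gene symbols and a sleuth comparison with effects, p-values and q-values, which was not used. All columns were assigned, with 0 value columns left unmapped. No source used here gives the annotation release.

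For each Ensembl gene the estimated counts of its transcripts were added and rounded, and all 6 libraries were fitted by GFP status alone with the quasi-likelihood F test of edgeR 4.0.16 (R 4.3.3, TMM, filterByExpr). The SE of a log2 fold change is its size over the square root of F. On simulated data with 200 changed genes among 20927 tested, 87% of the changed genes were called (97.7% where the change was 2-fold or more), as were 12 unchanged ones. The simulation gave every gene the same variability between libraries and left genes with few counts out of the changed ones. In the real data 49.0% of genes were called, so these rates do not carry over to them. The study calls its replicates independent, but the labels give no clutch or day. The p-values weigh a difference against the variation between these libraries, which edgeR moderates across genes. Floors of 3 counts cover counting error only.

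The members and lists were chosen with earlier results of these data known. Named were all S100 genes, the 3 largest changes in each direction and the 3 most abundant genes of the annexin and EF-hand lists, the most abundant gene of each marker list, the 3 genes most like each of the 3 most abundant members, and direct neighbours. Values of *anxa2b* were chosen after they were seen. The periderm markers compared across the GFP-negative replicates were named outside this rule. Other settings tried were no filter, RLE factors, library size only, DESeq2 1.42.0, a replicate block, each library left out, limma 3.58.1 on log2(TPM + 1) and log2(TPM + 0.1), the most abundant transcript, an adjusted p below 0.01, no TPM limit or a limit of 5, summed relatives and, added later, single transcripts. A search of promoters for motifs was not run.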

Additional observations from a re-analysis of the deposited data

How the results depend on the processing

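In 128 alternative values for the 8 genes, 123 kept their direction and their side of the threshold, 3 no longer passed, 2 newly passed and 0 reversed. Across settings 6 to 8 of the 8 genes were called higher and 0 lower, where 3525 to 5657 of all genes were called higher. The 128 hold values that could hardly differ, since transcript fits of genes with a single transcript reuse the counts of the gene. Each fit of summed relatives was also entered for both of them. Those that no longer passed were single minor transcripts of *s100u* (0.38), *s100v2* (1.52) and *s100w* (1.15). Leaving out 1 library moved *s100z* between 0.373 and 0.774, *icn2* between 5.22 and 6.05 and *s100w* between 2.92 and 5.44, with the values past the threshold for *s100z* named above. For the most abundant transcript of *s100w*, the one of 754 bases, the fitted value was 8.32. It was set by counts of 0 in GFP-negative cells, is no bound and was not read as a fold. Of 532 values for other genes 512 kept their side, 11 no longer passed, 6 newly passed and 3 reversed: *calm2b* with limma on log2(TPM + 1) and log2(TPM + 0.1) (−0.0476 for both), and *s100a11*, which ran between −0.257 and 0.0031 with 1 library left out. The cause was not tested. The median of all genes moved by −0.111 on log2(TPM + 0.1), by more than on any other scale tried. The main fit did not pair libraries by replicate number. Deviations of libraries with the same number correlated at 0.0375, −0.0263 and −0.0318. With 3 libraries per population such correlations cannot show whether equal numbers share a pool of embryos. With the replicate block, 4905 genes were called higher and 5073 lower, 7 of the 8 genes were called, and no call among the 8 changed (*icn2* 5.55, *s100z* 0.55 at adjusted p = 0.0664). Depth limits *s100w*, with 0 to 74 counts per library.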
